A study of Mus musculus with 16 samples.

Results

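Interferon response genes were taken here as every gene whose symbol starts with Ifit, Isg or Oas, with Ifi, Irf or Gbp followed by a digit, or is Ifih1 or Stat2. The rule reads names and no measured value, but it was chosen with earlier results of these data known. It gave 46 of 14138 genes in the count table of wild type and CPT2H-KO hearts and 66 of 17831 genes in the table of single and double KO hearts, with 67 genes in either table and 45 in both. Irf2bp1, Irf2bp2, Irf2bpl and Isg20l2 match by name only: they are counted with the rest and named as such where given. A filter on low counts left 46 of 46 genes in the first table and 55 of 66 in the second. The 11 genes that did not pass were Gbp10, Gbp2b, Gbp8, Ifi214, Ifi27l2b, Ifitm5, Ifitm6, Ifitm7, Oas1e, Oas1f and Oas1h, each under 1 CPM (counts scaled to a common library total) in all 6 libraries.

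The study sequenced total RNA from wild type mouse hearts and from hearts whose cardiomyocytes lack CPT2, the enzyme of the inner mitochondrial membrane that hands long-chain fatty acids to beta-oxidation. The first table holds 5 wild type hearts and 5 CPT2H-KO hearts. The second holds 3 CPT2 single KO hearts, whose genotype label is also CPT2H-KO, and 3 CPT2/USP30 double KO hearts, which also lack USP30, which removes ubiquitin at the outer face of mitochondria and so restrains mitophagy. Both groups of the second table therefore lack CPT2, and that table has no wild type heart. For USP30 the design text names Myh6-Cre, a recombinase expressed from a cardiomyocyte myosin promoter, with a floxed gene. The sources used here give neither the Cre used for CPT2 nor the age or sex of the mice.

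Interferons are cytokines that cells release when they sense foreign or misplaced nucleic acid. RNA sensors such as MDA5 (encoded by Ifih1) and DNA sensors such as cGAS drive IRF3 and IRF7 to switch on interferon genes. Secreted type I interferon then acts through JAK kinases and a complex that holds STAT2 and IRF9 on promoters with an interferon-stimulated response element (ISRE), while interferon gamma acts on gamma-activated sites (GAS). DNA or RNA that leaks from damaged mitochondria can engage the same sensors, and both comparisons were read for whether these genes differed between hearts. Mitochondrial damage itself was not measured in these libraries.

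A library of the first table held 54674422 to 132762776 counts, and one of the second 11067969 to 13532716. In the first, mitochondrially encoded genes made up 57.9 to 63% of the counts in wild type and 61.9 to 68.8% in CPT2H-KO libraries. Counts of a single interferon response gene in a single library ran from 3 to 10624 in the first table. Cpt2 averaged 77.9 ± 15.2 CPM over wild type hearts and 40.4 ± 5.72 CPM over CPT2H-KO hearts (SD, n = 5 each), and Usp30 averaged 21 ± 2.23 CPM in single and 9.39 ± 1.68 CPM in double KO hearts (SD, n = 3 each), without overlap in either case. Cardiomyocyte markers (Myh6, Tnnt2, Actc1, Ryr2, Tnni3 and Myl2) summed to 19300 to 21400 CPM in wild type and 16100 to 20300 CPM in CPT2H-KO hearts. By the test given below, 4 of these 6 (Tnnt2, Actc1, Tnni3 and Myl2) were called lower in CPT2H-KO hearts, where 17.0% of all genes were. In the second table the sums were 66900 to 73500 CPM in single and 65500 to 94400 CPM in double KO hearts. CPT2H-KO replicate 1 stood apart over the genes studied here: it was the lowest of its group for 34 of 46, with a median log2 difference of -0.45 from the group mean. Hearts of a group are called biological replicates in the labels, which say nothing on litters, so each p-value reflects only how far these hearts spread, which may be technical. Y-linked genes summed to under 1 CPM in wild type replicate 1 and CPT2H-KO replicates 1 and 3 and to 82.1 CPM or more in the other 7 hearts of the first table. RNA came from whole tissue, so fewer cells of a type and less RNA per cell cannot be told apart.

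CPT2H-KO hearts showed few differences in interferon response genes, and those went both ways. By edgeR's quasi-likelihood test (Benjamini-Hochberg adjusted p under 0.05), Ifit2 and Irf8 rose, and Irf4, Gbp2 and Ifi27 fell. That is 2 of 46 genes higher (4.35%), where 16.7% of all 14123 tested genes were called higher, and 3 of 46 lower (6.52%), where 17.0% of all genes were. The median log2 fold change was 0.00 over the 46 genes, with 23 above and 23 below 0, and -0.01 over all genes. No interferon response gene was higher in every CPT2H-KO heart than in any wild type heart, against 11.5% of all genes. Gbp2, Irf3 and Irf4 (6.52% of the 46) were lower without overlap, against 13.2% of all genes. The 95% interval of the log2 fold change ended below 1 for 43 of 46 genes, and the highest upper limit was 1.27, for Gbp6. These calls depended on the model: with an atrial muscle covariate (mean log2 CPM of Myl7, Myl4 and Sln) 0 of the 46 genes were called in either direction, while 11.5% of all genes were still called higher and 10.6% lower. The log2 fold changes in that fit were 0.50 for Ifit2, 0.35 for Irf8, -1.30 for Irf4, -0.64 for Gbp2 and -0.35 for Ifi27, with adjusted p from 0.0604 to 0.266. With library totals as scaling the counts were 0 higher and 11 lower, and those over all genes 5.86% and 34.2%. The 3 atrial genes summed to 57.1 to 438 CPM in wild type hearts and to 45.5, 1.8, 1.16, 2.02 and 353 CPM in CPT2H-KO replicates 1 to 5. Only CPT2H-KO replicate 5 lay within the wild type range, so the fit with the atrial covariate cannot fully tell genotype from atrial content.

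**Figure D1:**
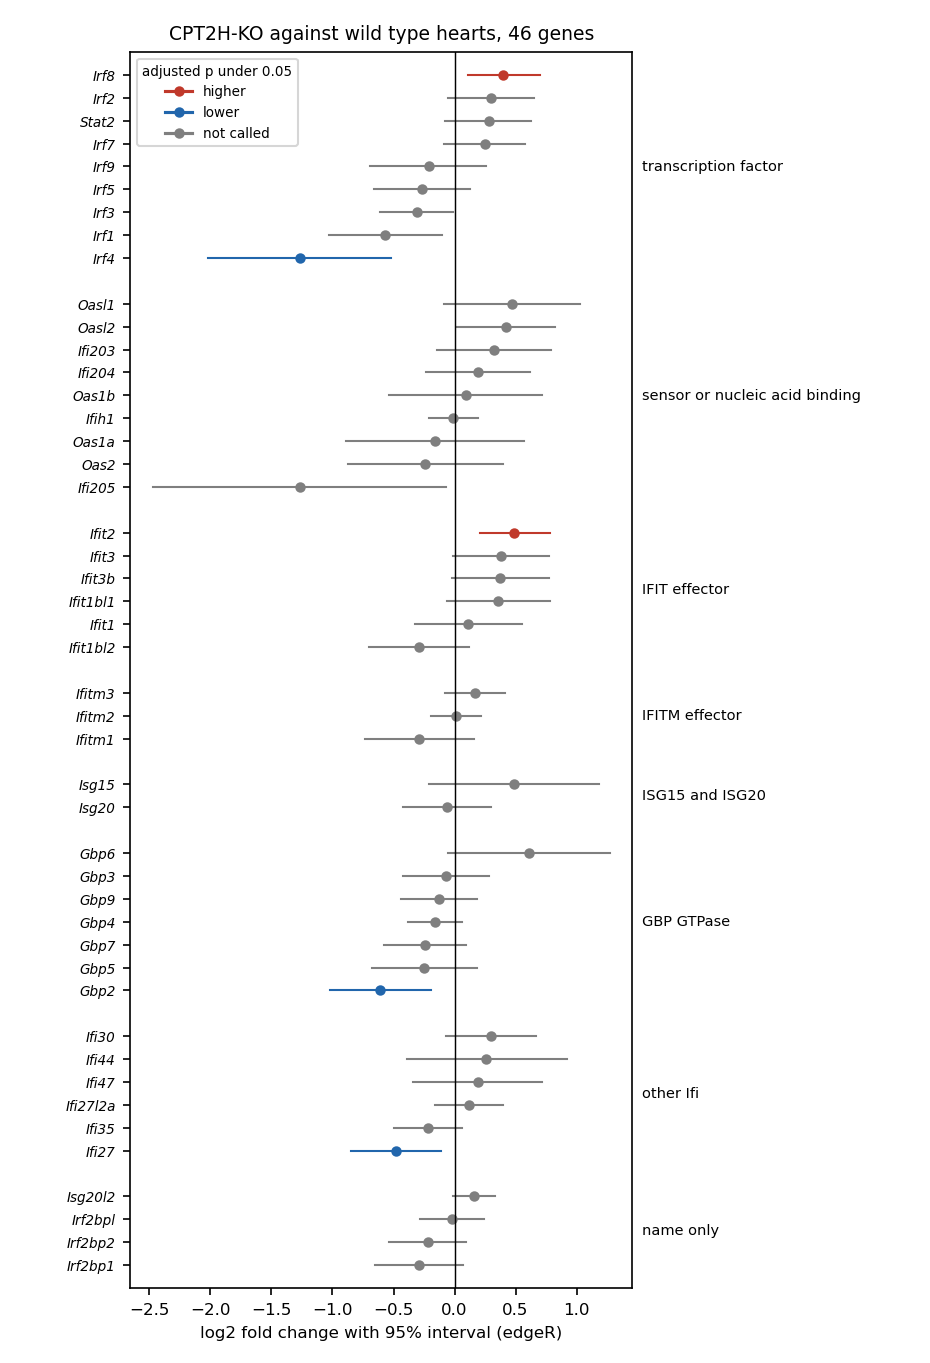
Log2 fold change of each of the 46 interferon response genes in CPT2H-KO against wild type hearts (x axis), grouped by role, with 95% intervals from edgeR (n = 5 hearts a group). Red marks the 2 genes called higher, blue the 3 called lower and grey the 41 not called, whose points lie on both sides of 0.

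Values by library are given below in the order of replicates 1 to 5, in CPM on scaled library sizes. Among effectors, the IFIT proteins bind viral RNA and block its translation. Ifit2 (chr19:34550694-34576419, plus strand, GRCm38) was at 7.12, 7.79, 7.94, 9.87 and 10.6 CPM in wild type and at 12.0, 13.9, 9.44, 12.6 and 13.0 CPM in CPT2H-KO hearts. CPT2H-KO replicate 3 lay within the wild type range and the other 4 hearts above it. The means of Ifit2 were 8.66 ± 1.48 and 12.2 ± 1.69 CPM (SD, n = 5 each), a log2 fold change of 0.49 (SE 0.13, edgeR adjusted p = 0.014). Its call was kept in 17 of 19 alternatives, with adjusted p from 0.00167 to 0.277.

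The other IFIT genes did not pass the test. Ifit3 was at 3.67, 3.00, 2.67, 4.24 and 4.68 CPM in wild type and 3.52, 5.64, 4.05, 5.03 and 5.36 CPM in CPT2H-KO hearts, a log2 fold change of 0.38 (95% interval -0.01 to 0.77, edgeR adjusted p = 0.121). Ifit1 was at 3.28, 2.72, 3.07, 4.40 and 4.16 CPM against 2.15, 4.34, 3.93, 4.42 and 4.19 CPM, with a log2 fold change of 0.11 (95% interval -0.32 to 0.55). In both genes the groups overlapped, and CPT2H-KO replicate 1 was the lowest heart of its group. Over the 6 IFIT genes, 1 was called higher and 0 lower, where 16.7% and 17.0% of all genes were, so the count lay near the background. A log2 fold change above 0 was found in 5 of the 6, around a median of 0.37, and in 49.1% of all genes. Ifit1, 1 of these 5, went to -0.14 with library totals as scaling. Ifit3b (0.37), Ifit1bl1 (0.36) and Ifit1bl2 (-0.29) were not called. The 6 genes lie side by side on chromosome 19, and counts of near-identical copies such as Ifit3 and Ifit3b are uncertain, since the sources used here do not name the counting program.

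ISG15, a ubiquitin-like protein, and IFITM3, which restricts virus entry at membranes, did not pass the test either. Isg15 was at 0.513, 0.452, 0.506, 0.829 and 0.810 CPM in wild type and 0.336, 0.794, 1.14, 1.21 and 0.861 CPM in CPT2H-KO hearts, the latter holding both the lowest and the highest heart. Its log2 fold change was 0.49, with a 95% interval of -0.21 to 1.18 (edgeR adjusted p = 0.259), and it had 17 to 129 counts per library. Ifitm3 was at 15.9, 12.8, 16.4, 20.1 and 17.8 CPM against 16.5, 18.4, 17.7, 20.4 and 19.9 CPM, a log2 fold change of 0.17 (95% interval -0.08 to 0.41). The groups overlapped in both genes. Isg20, an RNA exonuclease, had a log2 fold change of -0.06, Ifitm1 of -0.29 and Ifitm2 of 0.01. Per kilobase of exon, Ifitm3 was the most abundant of the 46 genes in wild type hearts at 24.5 ± 3.91 CPM per kb, followed by Ifi27l2a at 12.8 ± 1.58 CPM per kb (SD, n = 5). Ifitm2, at 9.18 ± 0.769 CPM per kb, came next after Irf2bp2 at 12.4 ± 1.38, while Ifit2 stood at 2.21 ± 0.377 and Isg15 at 0.823 ± 0.241 CPM per kb.

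Transcription factors of the pathway were mostly not called. Stat2, which carries the type I signal to the nucleus, was at 5.77, 4.41, 5.60, 7.79 and 6.64 CPM in wild type and 5.30, 7.55, 8.81, 7.74 and 7.22 CPM in CPT2H-KO hearts, a log2 fold change of 0.28 (95% interval -0.08 to 0.63). Irf9, its DNA-binding partner, was at 9.21, 8.44, 9.64, 13.4 and 13.4 CPM against 4.88, 9.53, 10.7, 9.87 and 11.6 CPM, a log2 fold change of -0.21 (95% interval -0.69 to 0.26). The groups overlapped in both genes, and wild type replicates 4 and 5 were the highest wild type hearts for Stat2 and Irf9.

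Of the IRFs that act on interferon genes, Irf7 was at 4.52, 4.16, 4.78, 6.99 and 6.66 CPM in wild type and 5.89, 6.83, 6.39, 7.40 and 5.65 CPM in CPT2H-KO hearts. Its groups overlapped, with a log2 fold change of 0.25 (95% interval -0.09 to 0.58). Irf3 was at 10.6, 10.3, 10.9, 12.1 and 11.1 CPM against 5.75, 9.91, 10.2, 9.46 and 9.02 CPM. All 5 CPT2H-KO hearts lay below all wild type hearts for Irf3, yet its log2 fold change of -0.31 did not pass (SE 0.13, edgeR adjusted p = 0.0972). Irf1, induced by interferon gamma, was at 10.4, 8.98, 11.5, 9.33 and 8.28 CPM against 3.16, 7.68, 8.48, 6.16 and 7.28 CPM, and its log2 fold change of -0.57 did not pass either (SE 0.21, edgeR adjusted p = 0.0604). Only CPT2H-KO replicate 3 reached into the wild type range of Irf1. Irf2 (0.30) and Irf5 (-0.27) were not called.

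Irf8, a factor of macrophages and dendritic cells, rose. It was at 2.03, 1.91, 2.34, 2.38 and 1.83 CPM in wild type and 2.15, 2.71, 3.38, 2.77 and 2.92 CPM in CPT2H-KO hearts, with only CPT2H-KO replicate 1 inside the wild type range. The log2 fold change of Irf8 was 0.40 (SE 0.13, edgeR adjusted p = 0.0382), and its call was lost in 11 of 19 alternatives, among them those without wild type replicate 1, 2 or 5 or CPT2H-KO replicate 2, 3, 4 or 5 (adjusted p up to 0.0861). Beside it, macrophage markers (9 genes, among them Csf1r, Adgre1 and Cd68) were above 0 in 1 of 9 cases, and their sum was 138 to 195 CPM in wild type and 118 to 166 CPM in CPT2H-KO hearts. Markers of all leukocytes (Ptprc, Cd52, Laptm5 and Coro1a) summed to 16.7 to 21.9 CPM and 15.1 to 28.6 CPM, and 0 of 4 were called. The monocyte markers Ccr2 (log2 fold change 0.81) and Itgam (-0.05) were not called. Their sum was 1.27 to 1.87 CPM in wild type and 1.15 to 4.15 CPM in CPT2H-KO hearts. The part of these cells in the values of Irf8 was not tested.

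Irf4, a factor of lymphocytes and of some macrophages, fell from 0.810 ± 0.0989 to 0.330 ± 0.154 CPM (SD, n = 5 each). Its values were 0.878, 0.654, 0.900, 0.842 and 0.777 CPM in wild type and 0.0593, 0.364, 0.407, 0.380 and 0.439 CPM in CPT2H-KO hearts, which all lay below the wild type hearts. The log2 fold change of Irf4 was -1.27 (SE 0.34, edgeR adjusted p = 0.0155), from counts of 47 to 131 per wild type and 3 to 51 per CPT2H-KO library. The call of Irf4 held in 18 of 19 alternatives.

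**Figure D2:**
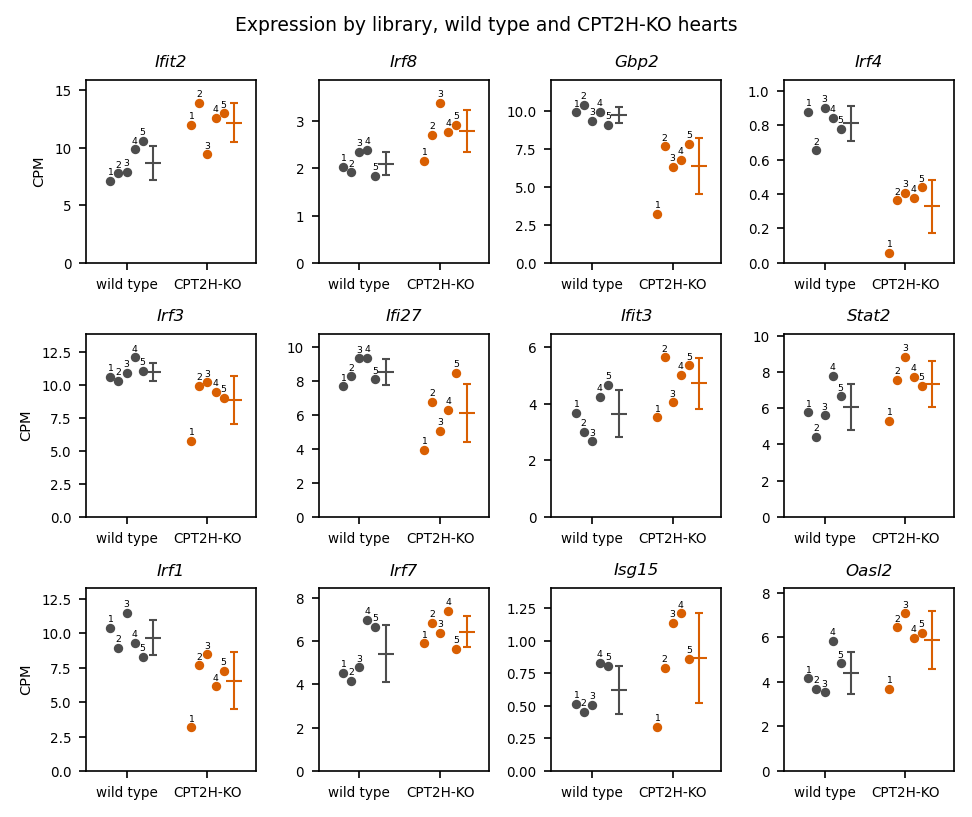
CPM (y axis) of 12 interferon response genes in 5 wild type (grey) and 5 CPT2H-KO (orange) hearts, each point 1 library with its replicate number, with mean and SD beside the points. Gbp2, Irf3 and Irf4 show no overlap between groups, and CPT2H-KO replicate 1 is the lowest CPT2H-KO heart in 10 of these 12 panels.

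None of the 9 nucleic acid sensors and binding proteins among the 46 genes was called. Ifih1, whose product MDA5 binds long double-stranded RNA, was at 8.29, 8.42, 8.77, 10.4 and 10.4 CPM in wild type and 8.38, 8.51, 9.48, 9.59 and 10.1 CPM in CPT2H-KO hearts. All CPT2H-KO values of Ifih1 lay within the wild type range, and its log2 fold change was -0.01 (95% interval -0.21 to 0.19). The OAS enzymes make the signal that activates RNase L. Oas1a was at 0.729, 0.547, 0.762, 1.21 and 1.21 CPM against 0.277, 0.877, 0.814, 1.14 and 0.835 CPM, a log2 fold change of -0.16 (95% interval -0.89 to 0.57). Oas2 was at 2.06, 2.02, 2.87, 3.61 and 3.85 CPM against 0.968, 2.90, 3.23, 2.47 and 2.63 CPM, a log2 fold change of -0.24 (95% interval -0.87 to 0.40). In both OAS genes CPT2H-KO replicate 1 was the lowest of all 10 hearts, and the groups overlapped.

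Oasl2, an OAS-like protein with ubiquitin-like domains, was at 4.16, 3.69, 3.53, 5.84 and 4.84 CPM in wild type and 3.69, 6.45, 7.08, 5.99 and 6.22 CPM in CPT2H-KO hearts. The other 4 CPT2H-KO hearts lay above all wild type hearts, but replicate 1 was level with the lower ones, and the log2 fold change of 0.42 did not pass (SE 0.18, edgeR adjusted p = 0.0997). Oas1b (0.09) and Oasl1 (0.47) were not called. Of the Ifi200 family of DNA-binding proteins, Ifi203 (0.32), Ifi204 (0.19) and Ifi205 (-1.27, edgeR adjusted p = 0.0952) were not called. Ifi205 varied from 2.07 to 8.81 CPM among wild type and from 0.593 to 4.45 CPM among CPT2H-KO hearts.

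The guanylate-binding proteins are GTPases induced above all by interferon gamma that attack membranes around pathogens. Of 7, 6 had a log2 fold change below 0, with a median of -0.16, where 7186 of all 14123 genes were below 0. Only 1 was called lower, a count near the 17.0% of all genes called lower. Gbp2 (chr3:142620602-142638008, plus strand, GRCm38) was at 9.89, 10.4, 9.32, 9.94 and 9.07 CPM in wild type and 3.24, 7.66, 6.33, 6.79 and 7.83 CPM in CPT2H-KO hearts, without overlap. It fell from 9.73 ± 0.544 to 6.37 ± 1.86 CPM (SD, n = 5 each), a log2 fold change of -0.61 (SE 0.19, edgeR adjusted p = 0.0287). Without wild type replicate 1, 2, 3 or 4 or CPT2H-KO replicate 3 the call was missed, at adjusted p of 0.0504 to 0.0653. Gbp3 was at 5.43, 6.59, 5.42, 7.25 and 6.79 CPM against 3.81, 7.28, 6.37, 5.78 and 6.71 CPM, a log2 fold change of -0.07 (95% interval -0.42 to 0.28) with overlapping groups. The log2 fold changes of Gbp4, Gbp5, Gbp7 and Gbp9 were -0.16, -0.25, -0.24 and -0.13, and that of Gbp6 was 0.61 (edgeR adjusted p = 0.141). Gbp4 and Gbp9 overlap on chromosome 5, so their reads may have been split.

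Of the remaining genes, Ifi27, which encodes a small mitochondrial and nuclear membrane protein, fell by 0.48 on the log2 scale (SE 0.17, edgeR adjusted p = 0.0483). Its values were 7.70, 8.28, 9.35, 9.38 and 8.11 CPM in wild type and 3.97, 6.79, 5.09, 6.29 and 8.49 CPM in CPT2H-KO hearts, of which replicate 5 lay within the wild type range. The call of Ifi27 was lost without any 1 heart other than CPT2H-KO replicate 5, at adjusted p of 0.0598 to 0.102. Ifi35 was at 6.14, 6.64, 7.30, 7.95 and 8.49 CPM against 4.51, 6.62, 6.45, 6.75 and 6.90 CPM, a log2 fold change of -0.22 (95% interval -0.50 to 0.06). Ifi44 was at 1.82, 2.13, 2.60, 4.78 and 3.02 CPM against 1.58, 3.24, 3.93, 4.22 and 4.22 CPM, a log2 fold change of 0.26 (95% interval -0.39 to 0.92). Both overlapped between groups. Ifi27l2a (0.12), Ifi30 (0.30) and Ifi47 (0.19) were not called, nor were the name-only matches Irf2bp1 (-0.29), Irf2bp2 (-0.22), Irf2bpl (-0.02) and Isg20l2 (0.16).

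CPT2H-KO replicate 1 bore on these counts. The summed CPM of the 46 genes was 256 in this heart and 294 to 330 in the other 4 CPT2H-KO hearts, beside 281 to 343 in wild type hearts. Without it, 7 genes were called higher (Ifit2, Irf8, Ifit3b, Oasl2, Oasl1, Gbp6 and Ifi203) and 3 lower (Irf4, Gbp2 and Irf1), while 15.6% and 16.9% of all genes were. The median log2 fold change of the 46 genes was then 0.05. This heart was singled out by its low values in the same 46 genes, so higher values without it are no separate result. In this heart the macrophage markers summed to 118 CPM and the leukocyte markers to 15.1 CPM, the lowest of the 10 hearts, and fibroblast markers to 1420 CPM, the highest of its group. Whether these values bear on its low interferon gene counts was not tested.

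**Figure D3:**
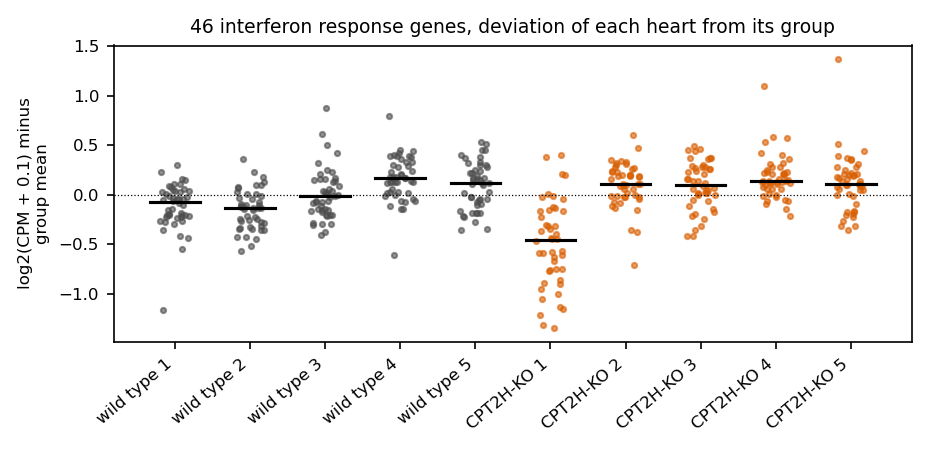
Difference of each heart from its group mean in log2(CPM + 0.1) (y axis) for the 46 interferon response genes (points), by library (x axis), with the median as a black bar. The bar of CPT2H-KO replicate 1 is at -0.45, and those of the other 9 hearts lie between -0.13 and 0.17.

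Other genes of the pathway were counted in 6 lists at the same threshold. Against the 16.7% of all genes called higher and 17.0% called lower, most of these counts lay near or below the background, and nothing is read from them about a list. Ligand, receptor and kinase genes were higher in 1 and lower in 2 of 10 cases: the interferon gamma receptor chain Ifngr2 fell from 103 ± 5.53 to 76.3 ± 13.5 CPM (log2 fold change -0.43, edgeR adjusted p = 0.0154), Il10rb fell (-0.30) and the interferon lambda receptor Ifnlr1 rose (0.49). Ifnar2 stood at -0.23 and was not called. Interferon ligand genes were not analysed here. Among genes of nucleic acid sensing, 3 of 18 rose (Zbp1 by 0.87, Traf3 by 0.43 and Samhd1 by 0.23 on the log2 scale, the last at -0.03 with library totals as scaling) and Tlr3 fell by 0.26, with a median of 0.18 over the list. Of 36 interferon-induced genes outside the families above, 2 rose (Trim25 by 0.67, Lgals3bp by 0.60) and 2 fell (Nmi by 0.42, Samd9l by 0.33), with a median of 0.03. Of these, Ifnlr1, Il10rb, Zbp1, Samhd1, Tlr3, Nmi and Samd9l lost their call without any of 5 to 8 of the 10 hearts and Traf3 without 1, at edgeR adjusted p of 0.0502 to 0.119, while Ifngr2, Trim25 and Lgals3bp kept it in all 10 cases.

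Genes known as targets of interferon gamma held the largest called differences of these lists. In a list of immunity-related GTPases, chemokines and MHC class II genes, 0 of 15 rose and 3 fell, the latter close to the 17.0% of all genes called lower, and the median was -0.69 on the log2 scale. Iigp1, a GTPase that attacks parasite vacuoles, was at 15.1, 18.3, 20.5, 24.4 and 18.7 CPM in wild type and 4.17, 8.90, 6.22, 7.71 and 6.52 CPM in CPT2H-KO hearts. Its highest CPT2H-KO heart lay below the lowest wild type heart, a log2 fold change of -1.53 (SE 0.19, edgeR adjusted p = 2.07e-04). Igtp was at 5.38, 5.16, 6.90, 5.65 and 5.54 CPM against 1.15, 2.86, 2.79, 3.15 and 2.38 CPM, again without overlap, a log2 fold change of -1.21 (SE 0.21, edgeR adjusted p = 0.00181). Iigp1 and Igtp were called lower in all 19 alternatives. Irgm2 fell by 0.72 on the log2 scale (edgeR adjusted p = 0.0329), a call lost in 7 of 19 alternatives, among them those without wild type replicate 1, 3, 4 or 5 or CPT2H-KO replicate 5 (adjusted p up to 0.0798), and Cd74, the invariant chain of MHC class II, stood at -0.86 (edgeR adjusted p = 0.121). Wild type replicate 3 held 54.7 CPM of Cd74 and the other wild type hearts 12.2 to 27.1 CPM, and without that heart the log2 fold change was -0.44. The MHC class II genes H2-Aa, H2-Ab1 and H2-Eb1 were also highest in that heart, where the list summed to 191 CPM, against 72.9 to 123 CPM in the other wild type hearts. The annotations of Igtp and Irgm2 overlap on chromosome 11, so their reads may have been split. Beside this list, 8 of 9 macrophage markers were below 0 and Cd163 fell by 0.63 on the log2 scale (edgeR adjusted p = 0.00565). Pericyte and smooth muscle markers summed to 513 to 595 CPM in wild type and 375 to 442 CPM in CPT2H-KO hearts, and fibroblast markers to 602 to 920 CPM and 855 to 1420 CPM. Markers within each sum differed. Acta2 (-1.75), Kcnj8 (-0.54) and Rgs5 (-0.25) were called lower, and Myh11 (-0.19), Tagln (-0.02) and Pdgfrb (0.10) were not called. Col1a1 (1.41) and Col3a1 (0.87) were called higher, and Lum (0.27), Pdgfra (0.23), Dcn (0.02) and Tcf21 (-0.05) were not called. The part of these cells in the values of the interferon gamma targets was not tested.

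Of 17 genes of antigen processing and MHC class I, 1 rose and 4 fell, beside 16.7% and 17.0% of all genes, with a median of -0.07. Psmb10, an immunoproteasome subunit, rose from 12.6 ± 1.24 to 21.5 ± 2.65 CPM (log2 fold change 0.76, edgeR adjusted p = 2.85e-04), while the proteasome activator subunits Psme1 and Psme2 fell by 0.64 and 0.51, the peptide transporter subunit Tap2 by 0.49 and the peptide-trimming enzyme Erap1 by 0.34 on the log2 scale. Of 17 genes that maintain or release mitochondrial nucleic acid, 2 rose (the matrix protease Lonp1 by 0.65 and the RNA helicase Supv3l1 by 0.24, though at -0.02 with library totals as scaling) and 2 fell (the nuclease Endog by 0.60 and the pore Vdac3 by 0.49), with a median of 0.10. The calls of Psmb10, Psme1, Psme2, Tap2, Lonp1, Endog and Vdac3 were kept without each of the 10 hearts, and that of Supv3l1 was lost in 2 cases.

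Promoter sequence was compared with these differences in 55 genes of either table that matched a RefSeq window of 250 bases before to 50 after the start (GRCm38.p6). The ISRE core, which is GAAA, any 2 bases and GAAA on either strand, was in a window of 28 of 55 genes (50.9%), against 3.99% of 27025 genes, where a gene with several starts has several windows. The GAS core, which is TTC, any 3 bases and GAA, was in 12 of 55 (21.8%), against 9.55%. A match is a description of the letters only. Irf4, which fell, had neither core in its window, and Ifi27, which also fell, had no window. A GAS core was also in windows of Gbp5, Gbp7, Isg20 and Irf2, which were not called. The stretches below are a selection from the genes named above, written 5′ to 3′ on the gene's strand with the core in capitals. Gbp2, which fell, and Ifit3, Ifit3b and Isg15, which did not pass, carry an ISRE core. Ifit2 and Irf8, which rose, and Irf1, which did not pass, carry a GAS core.
Gbp2, ISRE core, chr3:142620589-142620628, plus strand: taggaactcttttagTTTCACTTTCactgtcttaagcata
Isg15, ISRE core, chr4:156200866-156200905, minus strand: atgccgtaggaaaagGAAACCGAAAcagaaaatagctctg
Ifit3, ISRE core, chr19:34583358-34583397, plus strand: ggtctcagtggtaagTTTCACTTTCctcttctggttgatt
Ifit3b, ISRE core, chr19:34607754-34607793, plus strand: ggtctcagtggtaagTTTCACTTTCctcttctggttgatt
Ifit2, GAS core, chr19:34550444-34550476, plus strand: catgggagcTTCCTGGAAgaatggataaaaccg
Irf8, GAS core, chr8:120736172-120736210, plus strand: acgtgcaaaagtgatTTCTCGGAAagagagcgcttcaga
Irf1, GAS core, chr11:53769909-53769947, plus strand: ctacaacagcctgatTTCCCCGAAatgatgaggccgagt

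The stretches of Ifit3 and Ifit3b hold the same letters. In CPT2H-KO against wild type hearts, the median was 0.06 on the log2 scale for the 18 genes with an ISRE core (10 above 0) and -0.04 for the 20 without (9 above 0). Both medians lay close to the -0.01 of all genes. Ifit2 and Irf8 had no ISRE core in this window.

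In the second comparison the question was whether loss of USP30 on top of CPT2 loss came with a difference in the same genes. No interferon response gene was called. EdgeR called 0 of 55 tested genes and 0% of all 12997, so the count says little about these genes in particular. Usp30, the gene deleted in double KO hearts, was itself not called (log2 fold change -1.16, SE 0.18, edgeR adjusted p = 0.147). At an unadjusted p under 0.05, 5 of 55 were higher (9.09%, against 4.55% of all genes) and 0 lower (against 2.69%). Values did not overlap for 5 genes that were higher (against 6.69% of all genes) and for 1 that was lower (against 5.07%). DESeq2, which called 0.869% of all genes, called 0 of 55, and limma-voom called 0 genes in all. The 95% interval ended below a log2 fold change of 1 for 38 of 55 genes, and the highest upper limit was 2.14, for Ifi205.

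Fold changes leaned upward in double KO hearts. Of the 55 genes, 42 (76.4%) had a log2 fold change above 0, with a median of 0.19, against 50.4% and 0.00 over all genes. The lean varied with the hearts used: without single KO replicate 3, 35 of 55 were above 0 with a median of 0.06, and without double KO replicate 1, 32 of 55 with a median of 0.07. The median was 0.35 without single KO replicate 1 and 0.33 without double KO replicate 2, and 0.39 and 0.38 with the atrial and the Y-linked covariate. All 9 macrophage markers were above 0 as well, and their sum was 370, 252 and 209 CPM in single and 486, 323 and 327 CPM in double KO hearts. Single KO replicate 3 held the lowest and double KO replicate 1 the highest of these sums. Atrial muscle genes (Myl7, Myl4 and Sln) summed to 2.93 to 3.58 CPM in single and to 9.05, 383 and 1430 CPM in double KO hearts. Y-linked genes were at 124, 117 and 0.733 CPM in single KO and under 1 CPM in all double KO hearts. Single KO replicate 3 alone was like the double KO hearts in these genes, and the fit with the Y-linked covariate rests on it. Genotype therefore cannot be fully told apart from sex in this comparison. Endothelial markers summed to 1170 to 1290 CPM in single and 879 to 1030 CPM in double KO hearts, and red blood cell genes to 8130 to 10000 CPM and 4560 to 7760 CPM, both without overlap. The part of the macrophage, endothelial and red blood cell differences in the lean was not tested.

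**Figure D4:**
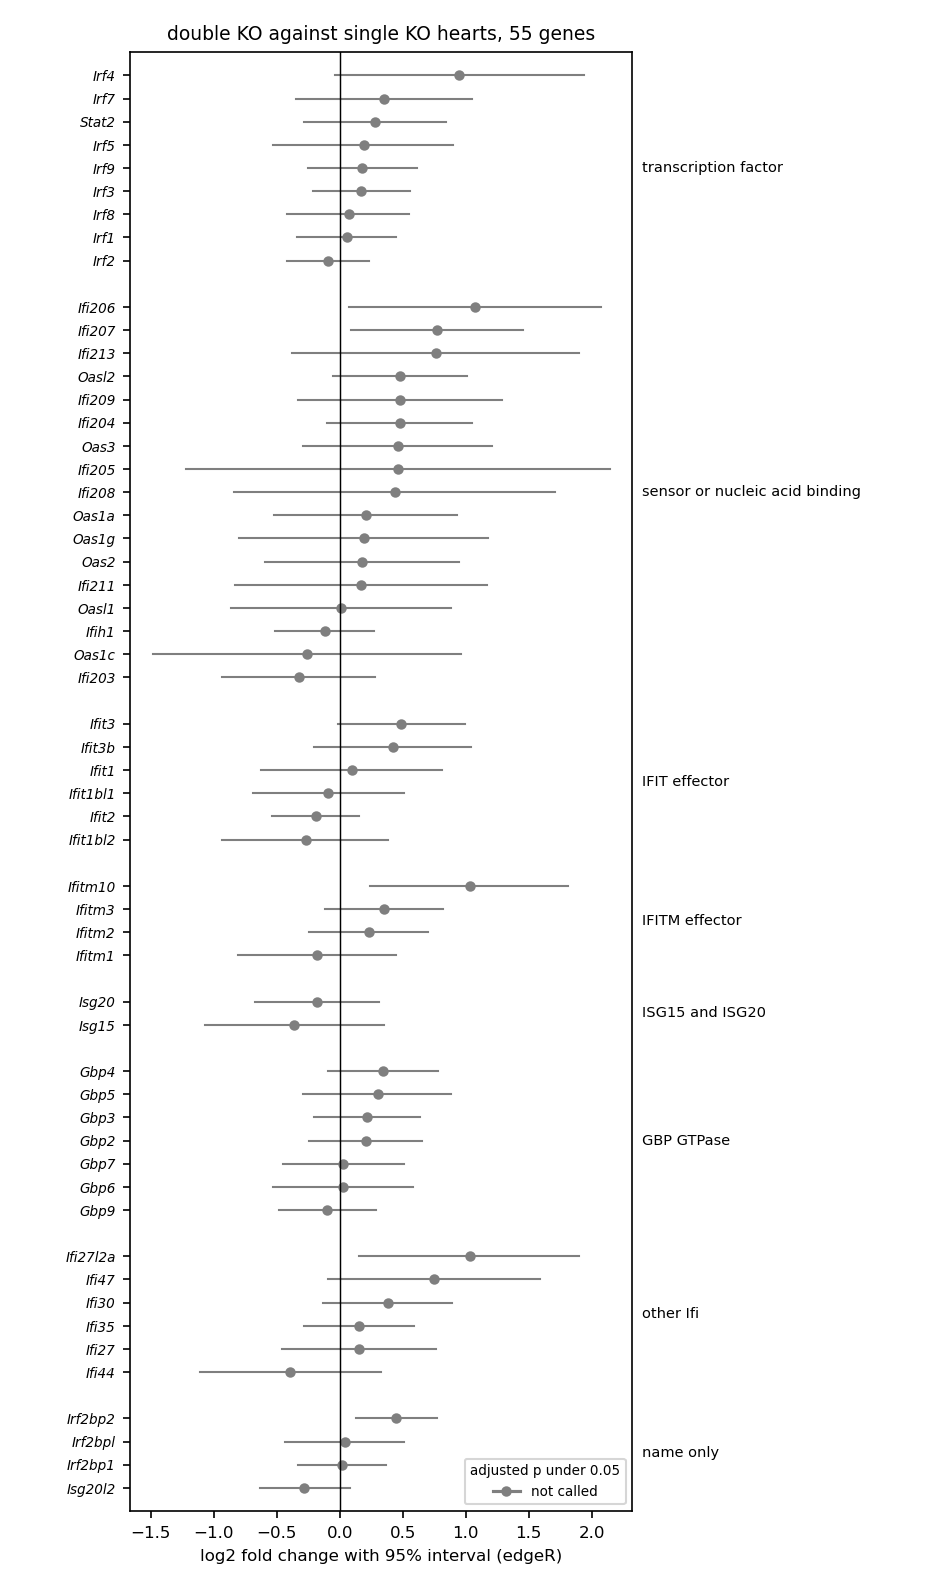
Log2 fold change of each of the 55 tested interferon response genes in CPT2/USP30 double KO against CPT2 single KO hearts (x axis), grouped by role, with 95% intervals from edgeR (n = 3 hearts a group). No gene was called; 42 points lie above 0 and 13 below.

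The 5 genes at an unadjusted p under 0.05 were Irf2bp2, Ifitm10, Ifi27l2a, Ifi207 and Ifi206, in replicate order as follows. Irf2bp2, a co-repressor that matches by name only, was at 33.5, 31.3 and 33.2 CPM in single and 49.0, 47.2 and 37.7 CPM in double KO hearts, without overlap (log2 fold change 0.45, SE 0.14, edgeR adjusted p = 0.477). Ifitm10 was at 1.38, 1.5 and 0.916 CPM against 3.24, 2.15 and 2.43 CPM, also without overlap (log2 fold change 1.03, SE 0.35, edgeR adjusted p = 0.519). Ifi27l2a was at 18.0, 17.8 and 9.16 CPM against 50.8, 17.6 and 23.5 CPM (log2 fold change 1.03, SE 0.39, edgeR adjusted p = 0.581). Double KO replicate 1 set the mean of Ifi27l2a, and replicate 2 lay within the single KO range. Ifi207 and Ifi206 of the Ifi200 family had log2 fold changes of 0.77 and 1.07, the latter from 6 to 21 counts per library. Irf4 (0.95) and Ifi209 (0.48) were also higher without overlap, at 24 counts or fewer per library, and Isg20l2 (-0.28) was lower without overlap.

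The central factors overlapped between single and double KO hearts. Stat2 was at 33, 34.7 and 25.0 CPM in single and 48.9, 23.4 and 40.4 CPM in double KO hearts (a log2 fold change of 0.28, 95% interval -0.28 to 0.84). Double KO replicate 2 was the lowest heart for Stat2, below every single KO heart. Irf9 was at 33.4, 27.0 and 20.5 CPM against 33.9, 26.7 and 31.1 CPM (log2 fold change 0.18, 95% interval -0.25 to 0.61).

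Irf7 ran from 13.6 CPM in single KO replicate 3 to 39.4 CPM in double KO replicate 1, with 28.9 and 21.8 CPM in the other single and 19.3 and 23.2 CPM in the other double KO hearts (log2 fold change 0.35, 95% interval -0.35 to 1.05). Irf3 was at 37.3, 29.4 and 26.5 CPM against 40.7, 31.7 and 32.6 CPM (0.17, 95% interval -0.21 to 0.56). Irf1 was at 33, 25.9 and 22.5 CPM against 31.9, 24.8 and 28.0 CPM (0.06, 95% interval -0.34 to 0.45). In Irf1 the highest heart was a single KO, and in Irf3 and Irf7 a double KO. Irf8, at 10.9, 8.61 and 8.15 CPM against 11.8, 7.87 and 9.31 CPM, had a log2 fold change of 0.07 (95% interval -0.42 to 0.55). Irf5 stood at 0.19 and Irf2 at -0.09.

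Effectors differed in sign. Ifit3 was at 19.6, 15.7 and 13.1 CPM in single and 26.8, 16.4 and 24.9 CPM in double KO hearts (a log2 fold change of 0.49, 95% interval -0.01 to 0.99), and double KO replicate 2 lay inside the single KO range. Ifit2, which rose in the first comparison, was at 24.6, 21 and 23.3 CPM against 19.4, 17.9 and 23 CPM (-0.19, 95% interval -0.54 to 0.15). Ifit1 was at 8.95, 4.94 and 5.50 CPM against 8.80, 4.39 and 7.53 CPM (0.10, 95% interval -0.62 to 0.81). Ifit3b stood at 0.42, Ifit1bl1 at -0.09 and Ifit1bl2 at -0.27, so 3 of 6 IFIT genes were above 0.

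Isg15 was at 6.91, 7.19 and 3.94 CPM in single and 5.48, 3.15 and 5.51 CPM in double KO hearts (a log2 fold change of -0.36, 95% interval -1.07 to 0.35). Ifitm3 was at 79.5, 75.5 and 66.5 CPM against 124, 68.1 and 90.9 CPM (0.35, 95% interval -0.12 to 0.82). Both overlapped, and Isg15 and Ifitm3 lay on opposite sides of 0. Isg20 stood at -0.18, Ifitm1 at -0.18 and Ifitm2 at 0.23. Among the other Ifi genes, Ifi27 was at 20.8, 11.6 and 9.89 CPM against 17.2, 12.8 and 17.0 CPM (0.15, 95% interval -0.46 to 0.76). Ifi35 was at 21.5, 17.1 and 15 CPM against 24.3, 17.1 and 18.2 CPM (0.15, 95% interval -0.28 to 0.59), and Ifi44 at 4.39, 2.77 and 3.39 CPM against 2.74, 1.99 and 3.32 CPM (-0.39, 95% interval -1.11 to 0.33). All 3 overlapped. Ifi30 (0.38) and Ifi47 (0.75) were not called, nor were the name-only matches Irf2bp1 (0.02) and Irf2bpl (0.04).

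**Figure D5:**
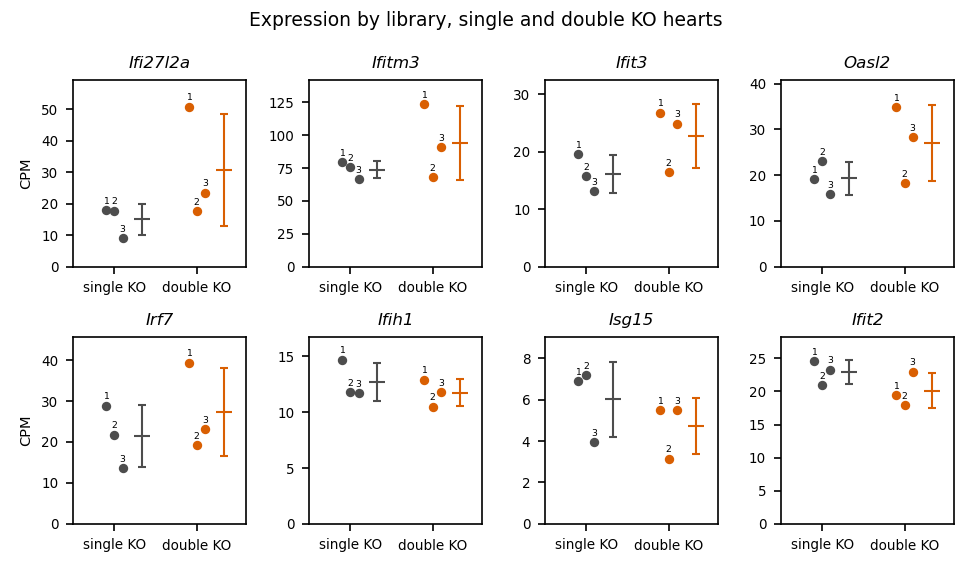
CPM (y axis) of 8 interferon response genes in 3 single KO (grey) and 3 double KO (orange) hearts, each point 1 library with its replicate number, with mean and SD beside the points. The groups overlap in every panel, and double KO replicate 1 is the highest of the 6 hearts for Ifi27l2a, Ifitm3, Ifit3, Oasl2 and Irf7.

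Sensors held the highest median of the roles, 0.44 over 17 tested genes, of which 14 were above 0 and 0 were called. Ifih1 was at 14.7, 11.8 and 11.7 CPM in single and 12.9, 10.5 and 11.8 CPM in double KO hearts (a log2 fold change of -0.12, 95% interval -0.51 to 0.27). Oasl2 was at 19.1, 23.1 and 15.9 CPM against 34.8, 18.3 and 28.3 CPM (0.48, 95% interval -0.05 to 1.01). Oas1a was at 6.02, 4.49 and 3.30 CPM against 7.22, 3.64 and 5.10 CPM (0.21, 95% interval -0.52 to 0.93). Double KO replicate 2 was the lowest or next to the lowest heart for these 3 sensors, and the groups overlapped. Oas2 was at 13.1, 9.43 and 7.42 CPM against 17.5, 6.79 and 9.64 CPM (0.18, 95% interval -0.59 to 0.95). The remaining tested sensors were Oas3 (0.46), Oasl1 (0.01), Oas1c (-0.26), Oas1g (0.19), Ifi203 (-0.32), Ifi204 (0.48), Ifi205 (0.46), Ifi208 (0.44), Ifi211 (0.17) and Ifi213 (0.76). All Ifi200 genes of either table lie in a cluster of 10 on chromosome 1, and the reads of such copies may have been split.

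The guanylate-binding proteins were above 0 in 6 of 7 cases with a median of 0.21. Gbp2 was at 21.2, 14.7 and 21.6 CPM in single and 23.8, 17.7 and 24.7 CPM in double KO hearts (a log2 fold change of 0.21, 95% interval -0.24 to 0.65). Gbp3 was at 15.7, 15.5 and 14.8 CPM against 18.3, 13.7 and 21.7 CPM (0.22, 95% interval -0.20 to 0.64). Both overlapped between groups. The others ran from -0.10 (Gbp9) to 0.34 (Gbp4), with Gbp5 at 0.30 and Gbp6 and Gbp7 at 0.03.

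In the 6 pathway lists edgeR called 0 genes in double against single KO hearts. Of the interferon gamma targets 13 of 15 were above 0, around a median of 0.32 on the log2 scale. Yet the list summed to 421, 238 and 191 CPM in single and 358, 306 and 343 CPM in double KO hearts, the highest being a single KO heart. Iigp1, the gene that fell most of that list in the first comparison, was at 22.6, 14 and 12.1 CPM in single and 31.5, 15.6 and 28.3 CPM in double KO hearts (0.63, edgeR adjusted p = 0.708), with overlap. Igtp stood at 0.39, H2-Aa at 0.50 and Nos2, an interferon gamma target of macrophages, at -0.75 (edgeR adjusted p = 0.307), the last without overlap. Of the sensing genes, the RNA receptor Tlr7 (0.98), Zbp1 (1.08), Dhx58 (0.60) and the DNA exonuclease Trex1 (0.45) had the smallest p, and none passed. Among induced genes these were Cmpk2 (-0.50), Dtx3l (-0.37), Rsad2 (-0.47) and Ddx60 (0.72), of both signs, around a median of -0.03. The medians were 0.09 for ligands, receptors and kinases (Socs1 0.41, Ifnlr1 0.23, Socs3 0.26, Ifngr2 -0.17), 0.19 for antigen processing (Tap2 0.24, Tapbp 0.27, Tap1 0.46, H2-T23 0.26) and -0.04 for mitochondrial nucleic acid upkeep (Bak1 -0.38, Mief1 -0.20, Pnpt1 -0.23, Tfam -0.25). Genes with an ISRE core had a median of 0.21 (26 genes) and those without of 0.16 (22 genes) in this comparison.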

How the data were processed

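RNA from 16 mouse hearts was sequenced, and the authors deposited the whole-number counts of reads by gene in 2 tables, not normalised. Per the labels' protocols, libraries were stranded total RNA after ribosomal RNA removal. The submitters' processing notes name bcl2fastq, HISAT2, DESeq2 1.42.0 and the build mm10. The sources used here do not give the counting program, annotation or strandedness of the counting. No gene of the first table totals under 151 counts, so rarer genes were not analysed here. From the second, 1 nameless row was dropped.

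Each comparison was fitted within its own table, and levels were not compared across tables. Counts were tested with edgeR 4.0.16 (R 4.3.3, filterByExpr, TMM scaling, quasi-likelihood F test) and p-values were adjusted by Benjamini-Hochberg over all tested genes, with a threshold of 0.05. SE is the log2 fold change over the square root of F, and CPM use TMM-scaled library sizes. The gene test was tested on simulated data. Alternatives were other scalings, no filter, DESeq2 1.42.0, limma-voom (limma 3.58.1), a replicate block, atrial and Y-linked covariates, removal of mitochondrially encoded genes (first table) and of each heart in turn. No 2 libraries of a group were duplicates: their chi-square per gene was at least 10.7.

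The members and lists were chosen with earlier results of these data known, and 2 genes that the name rule matches are not reported here. Values in every heart are given for 19 genes listed by name and each gene called, and from each pathway list the 4 with the smallest p are named, beside others chosen after their values were seen. Positions are from GENCODE M21 (GRCm38, the mm10 assembly), to which 67 of 67 genes matched, and promoter windows from RefSeq.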

Additional observations from a re-analysis of the deposited data

Results flagged for a closer look

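Of 92 sets of 5 hearts (46 genes in each group of the first comparison), 10 held a heart far from the others of its group by Dixon's gap over range, where chance gives about 1 in 20. CPT2H-KO replicate 1 accounted for 6 of them. It was the lowest heart for Irf3 at 5.75 CPM (next 9.02), Gbp7 at 4.92 (next 8.13), Ifi35 at 4.51 (next 6.45), Ifit1 at 2.15 (next 3.93) and Irf4 at 0.0593 CPM (next 0.364), and the highest for Isg20 at 1.17 CPM (next 0.997). In wild type hearts, replicate 4 was high for Gbp7 at 11.2 CPM (next 9.30), replicate 3 for Ifit1bl2 at 3.07 CPM (next 1.81) and replicate 5 for Irf2 at 8.44 CPM (next 5.57), and replicate 5 was low for Irf2bpl at 15.5 CPM (next 18.6).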

How the results depend on the processing

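In CPT2H-KO against wild type hearts, 2 interferon response genes were called higher and 3 lower. Scaling by library totals alone, which moved the median log2 fold change of all genes by -0.263, gave 0 and 11, beside 5.86% and 34.2% of all genes. With the atrial covariate they were 0 and 0. Leaving out 1 heart at a time gave 1 to 7 higher, the 7 without CPT2H-KO replicate 1, and 1 to 4 lower, with 1 lower without wild type replicate 1, 2, 3 or 4 and 2 without wild type replicate 5 or CPT2H-KO replicate 2, 3 or 4. Ifit2 and Irf4 were called without each of the 10 hearts. Of 855 values of 45 named genes under the alternatives, 709 kept their direction and side of the threshold, 114 lost a call, 14 gained one and 18 changed sign. In double against single KO hearts 0 genes were called, except 1, Ifi27l2a, with the atrial covariate (log2 fold change 2.01, adjusted p = 0.0366). The atrial genes summed to 2.93 to 3.58 CPM in single and to 9.05, 383 and 1430 CPM in double KO hearts. Without overlap between the groups, that fit cannot tell genotype from atrial content. Of 672 values of 48 genes 654 kept direction and side, 2 gained a call and 16 changed sign. Without double KO replicate 1, edgeR called 104 of all genes higher and 10 lower, none of them an interferon response gene. The cause of these changes was not tested.

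With the replicate block, 1 gene was called higher and 4 lower in the first comparison and 0 in the second. The numbers do not pair the hearts: deviations of same-numbered hearts correlated between -0.09 and 0.226 over genes in the first table and between -0.203 and 0.162 in the second, and 2 of 5 and 1 of 3 hearts correlated best with their own number.

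Of the pathway lists, called genes in the first comparison went from 3 to 5 for ligands, receptors and kinases, 4 to 1 for nucleic acid sensing, 3 to 7 for interferon gamma targets and 4 to 7 for mitochondrial nucleic acid upkeep with library totals only. They went to 1 for sensing and from 4 to 2 for other induced genes with the atrial covariate, and to 2 for sensing and 5 for interferon gamma targets with the replicate block. Without 1 heart they ranged from 1 to 4 for ligands, receptors and kinases, 1 to 6 for sensing and 2 to 5 for other induced genes. In the second, 1 receptor-list gene was called with the atrial covariate and 1 interferon gamma target by DESeq2.

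Sign changes in the first comparison were small. With library totals only, Ifi44 was at -0.02, Ifit1 at -0.14, Ifitm3 at -0.10, Irf7 at -0.02, Samhd1 at -0.03 and Supv3l1 at -0.02. Ifit1 was at -0.02 with the atrial covariate and Gbp3 at 0.01 with the Y-linked covariate. Ifih1 was at 0.01 with DESeq2, limma-voom and mitochondrially encoded genes left out, at 0.03 with the Y-linked covariate and between -0.04 and 0.04 without 1 heart. Without 1 heart, Gbp3 ranged from -0.15 to 0.05 and Oas1a from -0.33 to 0.04, each highest without CPT2H-KO replicate 1. In the second, Ifih1 was at 0.05, Socs1 at -0.30 and Socs3 at -0.04 with the atrial covariate, and Ifih1 at 0.01 and Isg15 at 0.30 with the Y-linked covariate. Without 1 heart, Ifi27 ranged from -0.06 to 0.53, Ifi35 from -0.02 to 0.29, Ifit1 from -0.12 to 0.39, Irf1 from -0.07 to 0.20, Irf7 from -0.02 to 0.60, Oas1a from -0.08 to 0.43, Oas2 from -0.28 to 0.44 and Ifngr2 from -0.31 to 0.01.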
